A study of Mus musculus with 6 samples.

Results

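A set of 10 genes that mark the stem cells at the base of intestinal crypts were followed in embryonic mouse bladder: Lgr4, Lgr5, Ascl2, Olfm4, Smoc2, Axin2, Ephb2, Ephb3, Sox9 and Prom1. The list was chosen by gene name, and 9 of its 10 genes had a probe set named for that gene alone. Ephb2 was not analysed here. RNA of whole bladders from Get1 -/- embryos (null, 3 arrays, numbered 1 to 3) was compared with RNA of bladders from Get1 +/- embryos (heterozygous, 3 arrays, numbered 4 to 6), all at embryonic day 18.5. Get1 is another name of Grhl3, a transcription factor of surface epithelia, so both groups carry the Get1 mutation and the control animals carry it on 1 of their 2 copies. The sources used here do not say how the allele was made, which strain it was in, or whether a sample held 1 bladder or several, so p-values measure only the spread between these samples, which may be partly technical. Wild-type bladders were not analysed here. In RNA of a whole organ, fewer cells of a type and less RNA per cell cannot be told apart.

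The lining of the intestine is renewed from stem cells at the bottom of its crypts. These cells are kept by Wnt signals: R-spondins bind receptors of the Lgr family, which protects the Wnt receptors from removal and lets beta-catenin switch on target genes with TCF and LEF factors. Daughter cells leave the crypt base, lose this programme and become enterocytes, goblet cells, Paneth cells or endocrine cells. Most of the 10 genes also act outside the gut, in mesenchyme, nerve, cartilage or other epithelia, so a signal in bladder does not by itself show an intestinal cell.

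While 8 of 12 tested differentiated intestinal genes rose many-fold in null bladders, the crypt stem cell genes showed no change that passed the test. Of the 7 tested, 0 passed limma's test at an adjusted p under 0.05 over all 12735 genes tested, where 0.448% of genes were called higher and 0.0628% lower in null bladders. Olfm4 was the 1 gene with an unadjusted p under 0.05 in the higher direction, and 0 genes had one in the lower direction, against 3.63% and 4.3% of all genes tested. The higher count was 2 without null 1, with Sox9, or without heterozygous 4, with Lgr4, and 0 with the 50% filter, which drops Olfm4; the lower count was 1, Prom1, in 7 of 16 alternatives. The adjusted p ranged from 0.317 for Olfm4 to 0.980 for Smoc2. The null and heterozygous arrays did not overlap for 1 gene higher in null, Olfm4, and 1 lower in null, Prom1, against 6.07% and 7.36% of all genes tested. Of the 7 differences 4 were above 0 and 3 below, with a median of 0.23 on the log2 scale, beside a median of -0.03 over all genes tested. A gene was tested if its mean over all 6 arrays lay above the lowest 30% of genes, which Lgr5 and Ascl2 did not reach. Olfm4 reached it through its null arrays, since its heterozygous mean of 5.59 lay under the limit of 5.80. In a fit of 24461 single probe sets, 11 of the 17 that belong to these genes were bright enough to be tested. Of these 0 passed limma's test, where 0.241% were called higher and 0.0286% lower, and 1 higher one, that of Olfm4, had an unadjusted p under 0.05. With no filter on genes, 0 of the 9 genes passed limma's test, where 0.297% of 18193 genes were called higher and 0.0495% lower, and Olfm4 was again the 1 gene with an unadjusted p under 0.05. Levels are log2(signal + 16), differences are null minus heterozygous on that scale, and intervals are 95% confidence intervals of limma. With 3 arrays a group, the smallest two-sided p that exact permutation allows is 0.1.

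**Figure D1:**
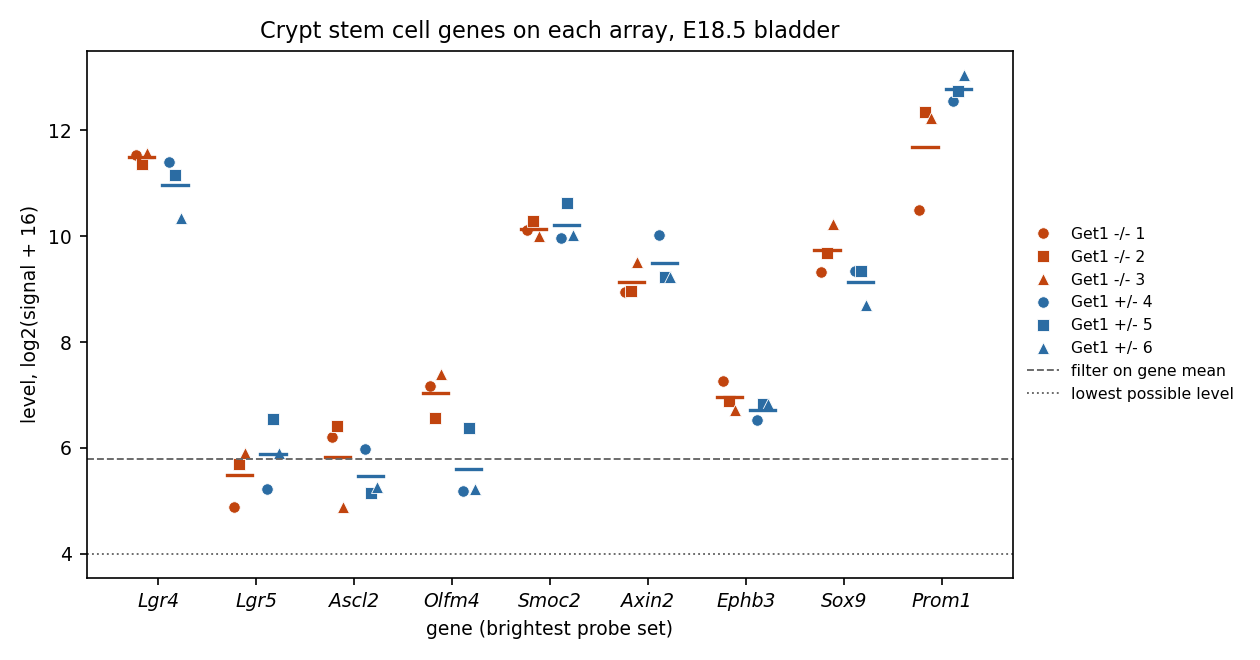
Levels of the 9 measured crypt stem cell genes as log2(signal + 16) on each of 6 arrays, with null arrays in red, heterozygous arrays in blue and a bar at each group's mean. The groups separate for Olfm4, higher in null, and for Prom1, lower in null, and overlap for the other 7, of which Lgr5 and Ascl2 have a mean under the dashed filter line at 5.80.

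The probe set of Grhl3, read as a check of the labels, gave signals of 76.6, 21.5 and 119.7 on null arrays 1 to 3, against 143.3, 132.9 and 125.6 on heterozygous arrays 4 to 6. Null arrays all lay below heterozygous ones, with a difference of -0.95 that did not pass limma's test (adjusted p = 0.655). Whether this probe set falls in the part of the gene removed by the mutation is not known here, so it may check nothing. Bladder markers were present on every array: the summed signal of 5 uroplakins, proteins of the bladder surface, was 7557 to 10480.3 on null and 12692 to 18751 on heterozygous arrays, and that of 6 smooth muscle genes 140840 to 151943 and 112406 to 140593. Array medians lay between 58.2 and 72.4.

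Lgr4 and Lgr5 encode the receptors for R-spondins. The signal of Lgr4 was 2952, 2636 and 3023 on null arrays 1 to 3, against 2700.3, 2277 and 1289.8 on heterozygous arrays 4 to 6. The low array was heterozygous 6, and heterozygous 4 lay within the null range. The difference in Lgr4 level was 0.52 (interval -0.17 to 1.21, adjusted p = 0.749, limma), and without heterozygous 6 it was 0.21. A second, dim Lgr4 probe set, at 1.05 to 29.3, had a difference of -0.04, and the mean of both gave 0.24. Lgr5, the defining marker of cycling crypt base stem cells, was dim throughout, at 13.7, 35.8 and 44.0 on the null arrays, against 21.4, 78.0 and 43.7 on the heterozygous arrays. Its highest signal was on a heterozygous array, its groups overlapped, and the difference in level of -0.39 was not tested under the filter on genes (exact permutation p = 0.5; adjusted p = 0.898 in limma's fit of single probe sets). The other Lgr5 probe set, at 0.902 to 62.5, was dimmer still and had a difference of 0.46, the opposite sign.

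Ascl2 and Sox9 encode transcription factors, Ascl2 a Wnt-driven regulator of stem cell identity and Sox9 a factor of crypt base and Paneth cells that cartilage and other organs also use. Ascl2 gave 58.1, 69.7 and 13.4 on the null arrays, against 47.3, 19.6 and 22.3 on the heterozygous arrays. The lowest and the highest of these 6 signals were both null, with a difference in level of 0.37 (exact permutation p = 0.6; adjusted p = 0.913 in the fit of single probe sets). Its other 2 probe sets stayed at 29.2 or below on every array. The brightest Sox9 probe set gave 624, 802 and 1182 on the null arrays, against 637, 629 and 398 on the heterozygous arrays. Null 3 was the highest and heterozygous 6 the lowest, while null 1 lay below heterozygous 4 and 5. The difference in Sox9 level was 0.62 (interval -0.10 to 1.33, adjusted p = 0.701, limma). Without null 3 it was 0.37 and without heterozygous 6 it was 0.40. The other 2 Sox9 probe sets were dim, at 43.1 or below on every array, and the mean of all its probe sets gave 0.39. For cartilage, a tissue that uses Sox9, the summed signal of 4 marker genes was 183 to 334 on null and 375 to 772 on heterozygous arrays, and the part of such cells in the Sox9 signal was not tested.

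Olfm4, a secreted glycoprotein of crypt base cells that neutrophils also make, had the largest difference of the 9 genes. Its signal was 127.6, 78.8 and 151.9 on null arrays 1 to 3, against 20.3, 67.2 and 21.3 on heterozygous arrays 4 to 6. All 3 null arrays lay above the heterozygous ones, but null 2 and heterozygous 5 were close. Mean levels were 7.04 ± 0.43 (SD, n = 3) for null and 5.59 ± 0.68 (SD, n = 3) for heterozygous bladders. This is a 2.73-fold difference in signal + 16, with an exact permutation p of 0.1. The difference of 1.45 (SE 0.38, interval 0.57 to 2.33) did not pass over all genes (adjusted p = 0.317, limma), and over 15 alternatives its adjusted p ran from 0.127 to 0.647. The heterozygous signals were dim, and with offsets of 1 and 64 in place of 16 the difference was 1.87 and 0.88. The summed signal of 5 neutrophil genes was 149 to 204 on null and 66.4 to 162 on heterozygous arrays. Only 2 of these 5 were bright enough to be tested. The summed signal of 15 differentiated intestinal genes was 14834 to 27643 on null and 570.2 to 1505 on heterozygous arrays. The part of either cell type in the Olfm4 signal was not tested.

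The 5 genes whose 6-array pattern lay nearest to that of Olfm4, by the root mean square distance between levels centred on each gene's own mean, were Naip2, Krt19, Ly6d, Epcam and Slc6a14, at distances of 0.21, 0.24, 0.26, 0.28 and 0.28 on the log2 scale. Krt19, a keratin of simple and transitional epithelia, gave 10085, 7062 and 11096 on the null arrays, against 3616, 5641 and 3533 on the heterozygous arrays. As with Olfm4, its lowest null array was null 2 and its highest heterozygous array heterozygous 5. The difference was 1.15 for Krt19 (adjusted p = 0.28), 1.06 for the epithelial adhesion molecule Epcam (adjusted p = 0.444) and 1.76 for the surface protein Ly6d (adjusted p = 0.0542), and 0 of the 5 passed limma's test. These genes were picked for their likeness over the same 6 arrays, so their differences are a description.

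Smoc2, a secreted matrix protein, is made by crypt base cells and by mesenchyme. It was evenly expressed, at 1099.5, 1228 and 1015 on the null arrays, against 990.1, 1557 and 1022 on the heterozygous arrays. The highest and lowest arrays were both heterozygous, and the difference in level was -0.067 (interval -0.64 to 0.51, adjusted p = 0.980, limma). Its direction was not fixed: a dimmer probe set gave 0.20, the mean of both probe sets 0.066, and the brighter one without heterozygous 5 gave 0.14.

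Axin2 encodes a scaffold of the complex that destroys beta-catenin, and is itself a widely used readout of Wnt signalling. The signal was 476, 484 and 711 on the null arrays, against 1021, 587.1 and 587.6 on the heterozygous arrays. Heterozygous 4 was the highest of all 6 and null 3 lay above the other 2 heterozygous arrays. The difference in Axin2 level was -0.36 (interval -1.05 to 0.33, adjusted p = 0.842, limma), and -0.10 without heterozygous 4. The second, dimmer Axin2 probe set went the other way, at 26.6, 34.8 and 65.3 on the null arrays, against 17.6, 42.5 and 6.10 on the heterozygous arrays, a difference of 0.67 (adjusted p = 0.797, limma over all probe sets). The mean of both gave 0.16, so no direction can be given for Axin2.

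Ephb3 encodes a receptor for ephrin-B ligands that holds crypt base and progenitor cells in place, and is a Wnt target. It gave 137.0, 101.9 and 89.7 on the null arrays, against 76.0, 97.9 and 97.2 on the heterozygous arrays. Null 3 lay within the heterozygous range, and the difference in level was 0.23 (interval -0.31 to 0.77, adjusted p = 0.877, limma). With 1 array left out it was 0.077 without null 1, 0.13 without heterozygous 4 and 0.34 without null 3. The interval leaves out a doubling of the Ephb3 level, which would be 1 on this scale, as do those of Smoc2, Prom1 and the brighter Axin2 probe set. The intervals of Lgr4, Sox9 and Olfm4 include one. A fall of the same size, -1 on this scale, lies outside the intervals of Ephb3 and Smoc2 but inside those of Prom1 (-2.20 to 0.02) and the brighter Axin2 probe set (-1.05 to 0.33).

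Prom1, also called CD133, is a membrane protein of apical protrusions in many epithelia, and marks progenitors in several organs. The signal was 1419, 5170.0 and 4824 on null arrays 1 to 3, against 6029, 6822 and 8463 on heterozygous arrays 4 to 6. All null arrays lay below all heterozygous ones, and null 1 stood far below the other null arrays. Mean levels were 11.69 ± 1.04 (SD, n = 3) for null and 12.78 ± 0.25 (SD, n = 3) for heterozygous bladders, with an exact permutation p of 0.1. The difference of -1.09 (SE 0.48, interval -2.20 to 0.02) did not pass limma's test (adjusted p = 0.63). Without null 1 it was -0.49 (adjusted p = 0.975). Its unadjusted p was above 0.05 in the main setting and under 0.05 in 7 of 16 alternatives: the offset of 64, the 50% filter, median centring, trended and robust moderation, averaged probe sets, and without null 2 or null 3. Null 1 also had the lowest mean of 3 neuronal and glial genes relative to the heterozygous mean. It was -1.62, against -0.53 and -0.47 on null 2 and 3. Of these genes Th was near the lowest possible level on null 1 (signal 1.39), while Sox10 was lowest on heterozygous 5 (127.7). Null 1 likewise had the lowest list means for stroma (-0.48) and cartilage (-1.58), and the lowest array median, 58.2. The cartilage mean was nearly as low on null 3 (-1.44), where Col9a1 gave 68.9 against 82.5 on null 1. The smooth muscle mean went the other way and was highest on null 1 (0.39). The part of any such cells in the Prom1 signal was not tested.

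Promoter sequence was read for the genes whose groups separated, Olfm4 and Prom1, to show the stretch searched for the sites of the factors at issue. RefSeq windows of the GRCm38.p6 build were matched for 6 of the 9 measured genes, and Lgr5, Smoc2 and Sox9 had no entry. The windows shown are the 250 bases before the transcript start, 5′ to 3′ on the gene's strand, at chr14:80000052-80000301 (plus strand) and chr5:44101737-44101986 (minus strand, the first of 2 Prom1 starts). They are all in lower case because neither motif occurs in them.
Olfm4: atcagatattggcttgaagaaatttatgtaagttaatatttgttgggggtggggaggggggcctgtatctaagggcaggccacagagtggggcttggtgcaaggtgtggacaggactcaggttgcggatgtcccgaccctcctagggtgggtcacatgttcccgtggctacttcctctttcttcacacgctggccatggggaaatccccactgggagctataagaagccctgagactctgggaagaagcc
Prom1: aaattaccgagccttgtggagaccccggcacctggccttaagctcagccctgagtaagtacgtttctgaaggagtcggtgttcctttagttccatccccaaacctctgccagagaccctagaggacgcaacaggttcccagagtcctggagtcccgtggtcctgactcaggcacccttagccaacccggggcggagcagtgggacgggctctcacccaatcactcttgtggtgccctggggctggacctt

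The motifs were CTTTGA, a form of the core bound by TCF and LEF factors, and AACCGG, part of the grainyhead palindrome. Each was searched on both strands, and other forms of the sites were not searched. Neither occurs in the windows of the 6 genes (0 of 6), while 13.8% of 32851 windows in the RefSeq table hold CTTTGA and 5.62% hold AACCGG. This says only that these letters are not in these windows. With the 50 bases after the start included, the count for CTTTGA was 1 of 6, Prom1, against 16.0% of all windows.

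Most tested genes of differentiated gut cells rose on the same arrays. Of 12 tested, 8 rose and 0 fell, against 0.448% and 0.0628% of all genes tested, with a median of 4.04. The 1 tested gene with a difference below 0 was Chga, an endocrine cell gene, at -0.47. Alpi, Aqp8 and Car1 lay under the filter, with differences of 1.56, 0.92 and 0.78, and are not in this median. Tff3, a goblet cell peptide, gave 6710.2, 11177 and 11787 on the null arrays against 49.0, 21.7 and 52.3 on the heterozygous arrays. The rise was 4.37 for Muc2, the main goblet cell mucin, and 3.02 for the cadherin gene Cdh17 (adjusted p = 0.0085 and 0.0019, limma). Of 3 tested intestinal transcription factors, Cdx2 (4.06) and Hnf4a (4.56) rose, and Klf4 had a difference of -0.34. The calls of the factors depended on the probe sets: 0 passed when probe sets were averaged, and 1 when those with _s_at or _x_at names were left out. The 10 genes that rose in these 2 lists had differences of 3.02 to 7.45. For 7 of the 10 the heterozygous mean lay under the filter limit, so they were tested through their null arrays and the sizes depend on the offset. Genes of the same lists that did not pass included Fabp2 at 2.53, Slc26a3 at 0.70 and Anpep at 0.15, the latter pair within the range of the crypt stem cell genes. Relative to the heterozygous mean, the mean level of the 7 crypt stem cell genes was -0.01, 0.17 and 0.39 on null 1 to 3, against a range of -0.22 to 0.20 on the heterozygous arrays, so that null 3 alone lay above it. That of the differentiated list was 2.92, 3.82 and 3.98 on the same arrays. No test compared the lists with each other.

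**Figure D2:**
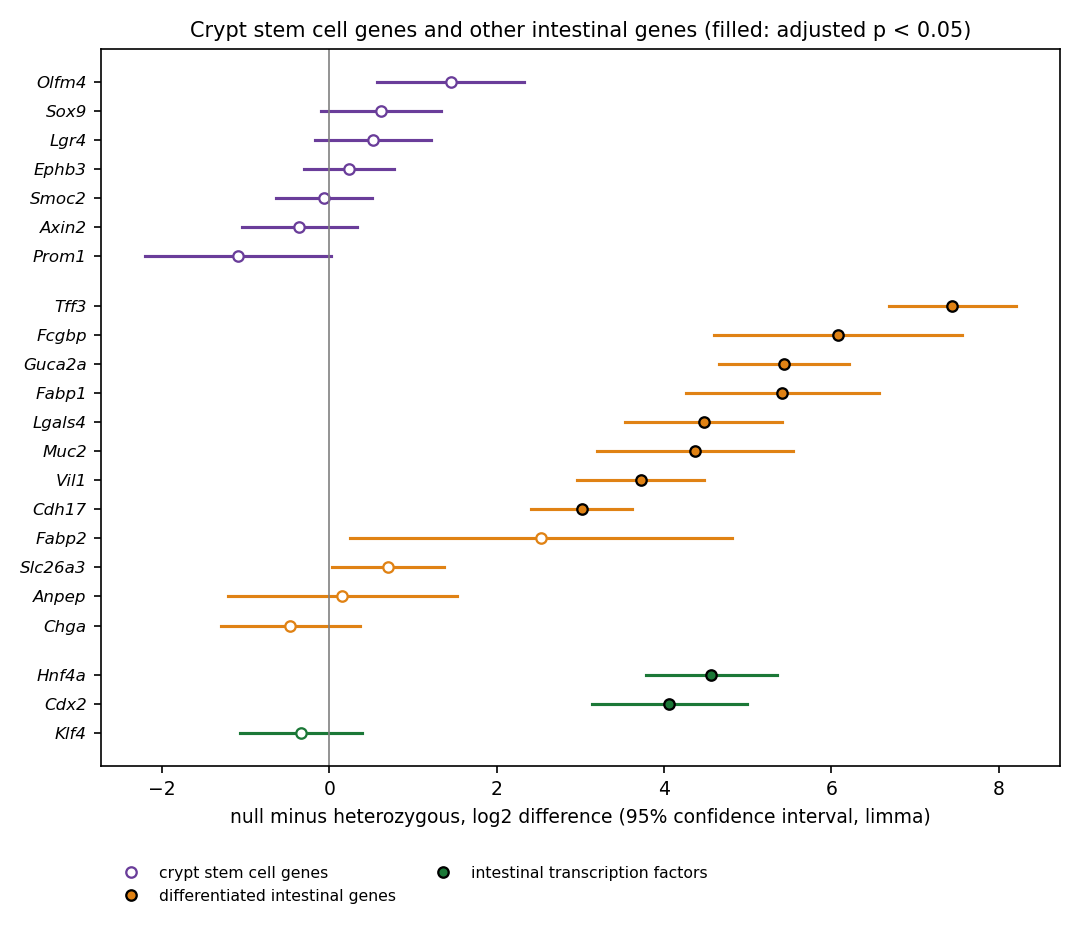
Null minus heterozygous difference of each tested gene on the log2 scale (points) with its 95% confidence interval from limma (lines), for 7 crypt stem cell genes, 12 differentiated intestinal genes and 3 intestinal transcription factors; filled points passed at an adjusted p under 0.05. The filled points, 10 in all, lie at 3.02 or above, and the crypt stem cell genes lie between -1.09 and 1.45 with none filled.

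**Figure D3:**
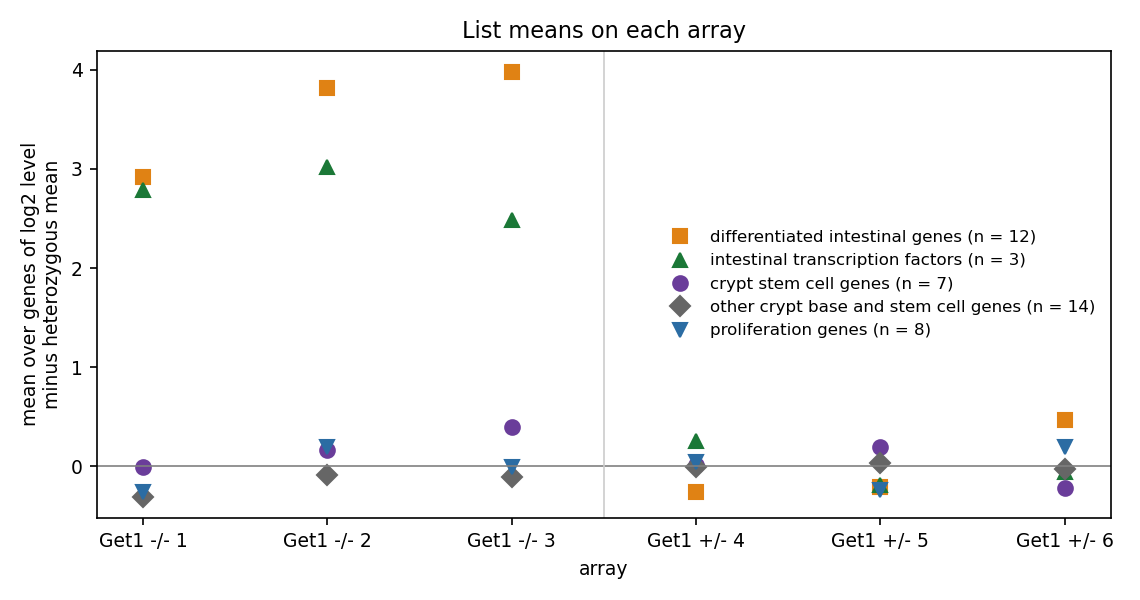
Mean over genes of the log2 level minus the heterozygous mean on each of 6 arrays, for 5 gene lists with the number of genes tested in each. On null arrays 1 to 3 the differentiated genes stand at 2.92, 3.82 and 3.98, while the crypt stem cell genes stand at -0.01, 0.17 and 0.39.

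Paneth cells neighbour the stem cells and supply them with Wnt and growth factor signals. Of 3 tested Paneth cell genes 0 passed limma's test, and the median was -0.04. An unadjusted p under 0.05 was found for 1 higher gene, against 3.63% of all genes tested. The matrix protease Mmp7, which other epithelia also make, gave 246, 284 and 343 on the null arrays, against 27.1, 6.37 and 71.2 on the heterozygous arrays. The groups were far apart, and their difference of 2.80 (interval 1.74 to 3.85) lay just outside the threshold (adjusted p = 0.056, limma). The heterozygous mean level of Mmp7, 5.45, lay under the filter limit, so the gene was tested through its null arrays. The list had 1 call in 7 of 16 alternatives. Lyz1, a lysozyme of Paneth cells, was highest on heterozygous 6 (10271) and otherwise between 1082 and 1719, with a difference of -0.53. Its probe set has an _x_at name, and which cells gave this signal was not tested. Of 8 proliferation genes, which mark dividing cells of any type, 0 passed limma's test or had an unadjusted p under 0.05, with a median of -0.02. Aurka, a mitotic kinase, had the largest positive difference at 0.36, and the replication helicase gene Mcm5 the largest negative one at -0.48.

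Other genes of the crypt, of Wnt signalling and of the Eph system were read from 5 lists with 54 genes, of which 43 were tested. Of these 0 passed limma's test. At an unadjusted p under 0.05 there were 2 higher and 6 lower, against 3.63% and 4.3% of all genes tested. The groups did not overlap for 3 higher and 6 lower, against 6.07% and 7.36% of all genes tested, with a median of -0.11. The smallest adjusted p was 0.225.

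Of 14 other crypt base and stem cell genes 10 had differences below 0, with a median of -0.19. Over all genes tested, 6989 of 12735 had differences below 0. Hopx, a marker of slowly cycling crypt cells, gave 870.4, 741 and 571 on the null arrays, against 996, 1088 and 1777 on the heterozygous arrays, which did not overlap (difference -0.78, adjusted p = 0.553, limma). Sox4, a progenitor transcription factor, had a difference of -0.72 with overlapping groups (adjusted p = 0.625). The ion cotransporter gene Slc12a2 went the other way at 0.53, with separate groups (adjusted p = 0.633). Lrig1, which restrains growth factor receptors and is another stem cell marker, had a difference of 0.30.

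Among the ligands, which stroma makes, R-spondins 2 and 3 had the lowest differences of their list. Rspo2 gave 14.2, 64.9 and 72.1 on the null arrays, against 159.5, 130.9 and 155.8 on the heterozygous arrays. Rspo3 gave 37.1, 200.3 and 229.8 on the null arrays, against 378, 316 and 384 on the heterozygous arrays. For both, null 1 was lowest by far and the groups did not overlap, with differences of -1.45 and -1.40 (adjusted p = 0.353 and 0.568, limma) that were -0.96 and -0.70 without null 1. Rspo1 had a difference of -0.38, and the third Lgr receptor, Lgr6, one of -0.17. Among the Wnt receptors Fzd5 had a difference of 0.70 and Fzd7 one of 0.45 (adjusted p = 0.627 and 0.8). The list of 8 had a median of -0.10.

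Feedback inhibitors and targets of Wnt signalling had a median of -0.28 over 9 genes. Myc, a growth-promoting transcription factor, gave 75.7, 74.9 and 84.7 on the null arrays, against 44.1, 43.8 and 2.36 on the heterozygous arrays. These arrays separated by genotype, with heterozygous 6 far below the rest, and the difference was 1.22 (adjusted p = 0.546, limma). The heterozygous signals were dim. Their mean level of 5.34 lay under the filter limit, so Myc was tested through its null arrays. Apcdd1, a membrane inhibitor of Wnt, had a difference of -1.05 and, like Prom1 and Rspo3, its lowest signal on null 1 (937 against 3126 to 6997 on the heterozygous arrays). Null 2 and 3 gave 3259 and 3227, within the heterozygous range, and the difference did not pass (adjusted p = 0.697, limma) and was -0.46 without null 1. The secreted inhibitor Dkk1 had a difference of -0.64 with separate groups (adjusted p = 0.645). The null mean level of Dkk1, 5.65, lay under the filter limit, so the gene was tested through its heterozygous arrays. Rnf43 and Znrf3, the ligases that R-spondins hold back, had differences of 0.03 and 0.22. In the list of the beta-catenin complex and TCF factors, 7 genes lay between -0.34 (Lef1) and 0.28 (Tcf7l1), with a median of 0.09 and Ctnnb1 itself at -0.002.

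Ephrin-B ligands repel cells that carry EphB receptors such as Ephb3. Efnb3 gave 95.9, 132.7 and 191 on the null arrays, against 363, 281 and 524 on the heterozygous arrays, which did not overlap (difference -1.38, interval -2.12 to -0.64, adjusted p = 0.225, limma). The receptor gene Ephb1 also had separate groups (difference -0.86, adjusted p = 0.401). Efnb1 and Efnb2, the ligands of the intestinal villus, had differences of 0.24 and -0.11. The list of 5 tested genes had a median of -0.11.

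**Figure D4:**
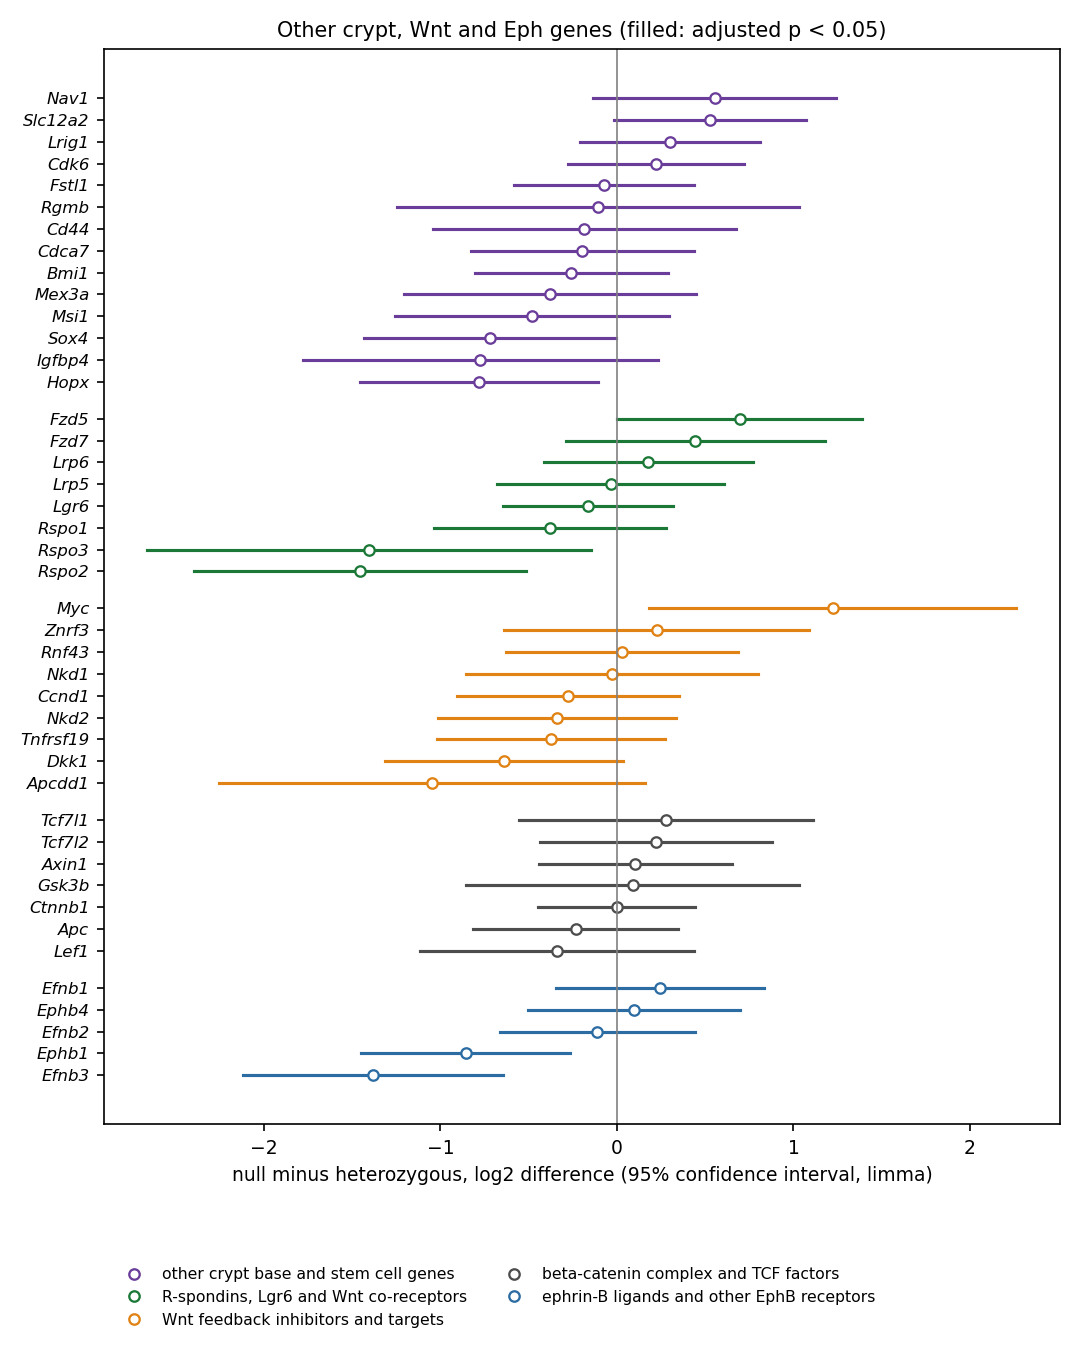
Null minus heterozygous difference on the log2 scale (points) with its 95% confidence interval from limma (lines) for 43 tested genes of 5 lists, coloured by list; a filled point would have passed at an adjusted p under 0.05, and none is filled. Rspo2 (-1.45), Rspo3 (-1.40) and Efnb3 (-1.38) lie lowest and Myc (1.22) highest.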

How the data were processed

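RNA of 6 bladders or bladder pools was measured on 1 expression array each, 3 per genotype. The deposited values are probe set intensities on a linear scale, which the authors made with tools that the submitters' processing notes list as Affymetrix Expression Console (version 1.1) and PLIER (version 2.0). The background and scaling steps are not given in the sources. Upper quartiles of 336 to 372 show that arrays had a similar scale when deposited. Groups came from the sample titles. No array detection calls were used, and the number of arrays limits the precision.

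Of 45101 probe sets, 34945 carried exactly 1 gene symbol in the platform annotation, and those with more symbols were not used to name genes. Checking identifiers against GRCm38.p6 altered 0 symbols. The probe set with the highest mean log2(value + 16) stood for its gene (18193 genes), and the lowest 30% by mean over all arrays were left out, a log2 level under 5.80. That offset shrinks the differences of dim genes. The fit was limma 3.58.1 (R 4.3.3) with plain empirical Bayes moderation, two-sided, with Benjamini-Hochberg adjustment at 0.05 over all genes. A second fit took every probe set with 1 symbol. The first fit was tested on simulated data. Promoters were searched in Python 3.11.15.

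The members and the 17 context lists were chosen with earlier results of these data known. Named in the text are the 10 members, Grhl3, called genes of each list with up to 4 others of smallest p, and the 5 genes nearest to the member with the largest difference; a few further list genes were named after their values were seen. Alternatives were offsets of 1 and 64, no filter or a 50% filter, quantile normalization, median centring, trended and robust moderation, array weights, averaged probe sets, probe sets without _s_at or _x_at names, and each array left out.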

Additional observations from a re-analysis of the deposited data

How the results depend on the processing

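In all 16 alternative fits 0 of the crypt stem cell genes tested passed limma's test in either direction. The lowest adjusted p reached was 0.127, for Olfm4 without heterozygous 5. Lgr4, Olfm4, Ephb3, Sox9 and Prom1 kept their sign in each alternative that tested them. Smoc2 changed sign with averaged probe sets (0.066) and without heterozygous 5 (0.14; the lowest value with 1 array left out was -0.18), and Axin2 with averaged probe sets (0.16), where a dimmer probe set of opposite sign enters the mean. The median over the genes tested, 0.23, became -0.067 with the 50% filter, which drops Olfm4 and Ephb3, and ranged from 0.077 (without null 1) to 0.34 (without null 3) when 1 array was left out. Over all genes, 57 were called higher and 8 lower. With an offset of 1 the counts were 36 and 5, with the 50% filter the lower count was 5, and with 1 array left out they ranged from 38 to 54 and from 5 to 9 (the cause was not tested). Of the differentiated intestinal list 5 to 9 genes were called higher in the alternatives. The number of measured genes with CTTTGA in the promoter window was 1 with the 50 bases after the start included, since the window is longer. Leaving out null 1 is also the fit within the 5 arrays whose titles share a first number of 2. No paired analysis was possible because the null arrays are numbered 1 to 3 and the heterozygous arrays 4 to 6. Dim signal limits Lgr5 and Ascl2: their levels lay near the filter limit in both groups.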

Other observations

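Lists for the other cell types of a bladder dissection were read in the same fit. Of the 5 uroplakins, 1 fell, Upk2 (-3.03, adjusted p = 0.0022, limma), against 0.0628% of all genes tested. All 5 differences were below 0. Upk1a, also with separate groups, had a difference of -2.36 that did not pass (adjusted p = 0.199, limma). Without null 1 it was -2.94 and passed (adjusted p = 0.027, limma). In each of the remaining lists 0 genes passed limma's test. Of all genes tested, 3.63% had an unadjusted p under 0.05 in the higher direction and 4.3% in the lower. Differences lay above 0 for 5746 and below 0 for 6989 of the 12735 genes tested. The groups did not overlap for 6.07% higher and 7.36% lower in null. Of 5 basal urothelial genes 2 had an unadjusted p under 0.05, the signal Shh (1.00) and the keratin Krt15 (0.73), both with separate groups. Of 6 smooth muscle genes all had differences above 0, with Des at 0.80 and a median of 0.21, and 2 had an unadjusted p under 0.05. Of 6 stromal genes 5 had differences below 0, with Dpt at -0.76 and a median of -0.32, and 1 had an unadjusted p under 0.05. The 3 neuronal and glial genes had a median of -0.59, with the catecholamine enzyme gene Th at -1.85, the 1 gene with an unadjusted p under 0.05. The null mean level of Th, 5.70, lay under the filter limit, with a signal of 1.39 on null 1. Th was therefore tested through its heterozygous arrays.

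The cartilage collagen gene Col9a1 gave 82.5, 120.3 and 68.9 on the null arrays, against 268, 227 and 221 on the heterozygous arrays. Null arrays all lay below heterozygous ones, with a difference of -1.28 that did not pass (adjusted p = 0.125, limma). Acan, a cartilage proteoglycan, had a difference of -1.24 (adjusted p = 0.655, limma). Col2a1 and Matn1, which lay under the filter, had differences of -0.49 and 0.25. The part of cartilage in the Sox9 signal was not tested. Of 2 tested neutrophil genes, Ngp and Mpo had differences of 0.24 and 0.14, and 0 had an unadjusted p under 0.05. Hoxb13, a homeobox gene of hindgut and prostate, was the 1 tested gene of its list and gave 106.8, 192 and 277 on the null arrays, against 66.0, 56.9 and 59.8 on the heterozygous arrays. Null arrays all lay above heterozygous ones, with a difference of 1.35 that did not pass (adjusted p = 0.26, limma; unadjusted p under 0.05).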
